A study of Mus musculus with 3 samples.

Results

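The interferon-inducible GTPases described here are 10 mouse genes of 2 families, the immunity-related GTPases (Igtp, Irgm1, Irgm2, Iigp1, Ifi47 and Tgtp1) and the guanylate-binding proteins (Gbp2, Gbp3, Gbp4 and Gbp6). They were matched to probes by gene symbol, and 7 of the 10 had a probe with their name among the 9678 genes measured by a named probe. Iigp1, Gbp4 and Gbp6 had none and count as not measured. The members were selected on their measured differences in level between these same arrays, so their levels are given as a description and carry no test.

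Both families bind GTP and are best known for defending cells against parasites and bacteria that live inside membrane-bound vacuoles. Interferon gamma acts through gamma-activated sites (GAS) in DNA, and both interferon types act through interferon-stimulated response elements (ISRE), bound by factors such as IRF1. The immunity-related GTPases fall into effectors with a GKS nucleotide-binding motif, which load onto vacuoles (Ifi47, Tgtp1, Iigp1), and regulators with a GMS motif, which sit on the cell's own membranes and hold the effectors inactive there (Irgm1, Irgm2 and Igtp, also called Irgm3). The guanylate-binding proteins coat vacuoles and bacteria after them.

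The RNA was from cultures of OS25, an embryonic stem (ES) line of mouse, kept with hygromycin at 0.1 mg/mL, leukaemia inhibitory factor at 1000 units/mL and 10% foetal calf serum. The labels give a single group, undifferentiated ES cells, with 3 biological replicates on 1 Illumina BeadArray each, no interferon treatment and no control, and the arrays accompany a study of histone H4 acetylation. The only comparison is therefore between replicates, with 1 array a side and no test. Levels are normalised log2 intensities, and a probe was above background on an array where its detection p, set against that array's negative control beads, was under 0.01.

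Replicate 1 stood apart across the whole array. Over 13777 probes above background on all arrays, replicates 2 and 3 correlated at r = 0.99 (Pearson), whereas replicate 1 reached 0.949 with replicate 2 and 0.951 with replicate 3, a description over probes that are not independent. The comparison of replicate 3 with replicate 2 is thus the one that leaves replicate 1 out. Of 10 ES cell marker genes 3 had a named probe, and Klf4 alone was above background on all arrays (6.48, 8.08 and 7.86 on replicates 1, 2 and 3). Zfp42 was above background on replicate 1 alone and Tfcp2l1 on none, and Pou5f1, Nanog and Sox2 had no named probe. Such genes had no probe of their name in the authors' table. None of the 27527 probes outside that table was above background on any array. Of 10 fibroblast markers 9 had one and 7 were above background on all arrays. That is near the 82.2% of all 9678 named genes, so nothing is read from it. With 3 ES cell markers measured, few stand behind the label here.

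The DNA just before the transcription start is shown first, because 6 of the 7 measured members hold an ISRE core there. The windows are the 100 bases before the RefSeq start (GRCm38.p6), from −100 to −1, in the direction of the gene. Capitals mark matches, on either strand, to the ISRE core (GAAA, any 2 bases, GAAA), its longer form (the core followed by CT) or the GAS TTCNNNGAA. Igtp, Irgm2 and Tgtp1 carry a GAS followed by an ISRE core, and Irgm1 and the first start of Gbp3 carry 2 overlapping ISRE cores. In Gbp2 and Gbp3 the element lies on the opposite strand and reads TTTC first. Ifi47 is shown as the member with no match.
Igtp, chr11:58199456-58199555, plus strand: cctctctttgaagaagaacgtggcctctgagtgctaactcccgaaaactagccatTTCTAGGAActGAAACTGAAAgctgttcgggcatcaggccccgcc
Irgm2, chr11:58214877-58214976, plus strand: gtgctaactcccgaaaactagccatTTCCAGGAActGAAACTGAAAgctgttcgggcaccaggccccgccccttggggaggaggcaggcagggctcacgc
Tgtp1, chr11:48992247-48992346, minus strand: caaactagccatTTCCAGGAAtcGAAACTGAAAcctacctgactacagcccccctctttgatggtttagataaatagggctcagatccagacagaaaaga
Irgm1, chr11:48871421-48871520, minus strand: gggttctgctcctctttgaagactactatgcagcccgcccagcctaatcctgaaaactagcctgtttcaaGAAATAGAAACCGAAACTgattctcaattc
Gbp2, chr3:142620563-142620662, plus strand: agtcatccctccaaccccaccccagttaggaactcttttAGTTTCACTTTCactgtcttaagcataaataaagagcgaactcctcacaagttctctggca
Gbp3, first start, chr3:142559944-142560043, plus strand: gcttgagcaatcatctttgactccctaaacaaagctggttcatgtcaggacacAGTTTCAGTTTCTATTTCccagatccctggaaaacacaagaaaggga
Ifi47, chr11:49076487-49076586, plus strand: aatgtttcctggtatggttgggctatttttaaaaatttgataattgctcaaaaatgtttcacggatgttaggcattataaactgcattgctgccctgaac

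Igtp encodes a regulator of the effector GTPases and had the widest range between arrays of the 7950 genes whose probe was above background on all 3. Replicates 1, 2 and 3 gave levels of 12.55, 7.64 and 10.98 (10.39 ± 2.51, SD, n = 3). Replicate 1 was 30-fold above replicate 2, and replicate 3 lay between them, 10.1-fold above replicate 2. Before normalisation the same probe had an intensity of 6722, 248 and 1818, where the median probe of each array lay between 74.9 and 80.7. It was thus well above background even on the lowest array. In RNA from a whole culture, fewer cells with a transcript and less of it per cell cannot be told apart.

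Irgm2, the neighbouring regulator gene on chromosome 11, followed Igtp closely. Its level was 12.09, 7.54 and 10.81 on replicates 1, 2 and 3 (10.15 ± 2.35, SD, n = 3). Replicate 1 exceeded replicate 2 by 23.4-fold and replicate 3 exceeded it by 9.7-fold. On the log2 scale the step from replicate 2 to replicate 3 was 68.1% of the step from replicate 2 to replicate 1 for Igtp and 72% for Irgm2.

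Irgm1, the third regulator gene, was high on every array. Its brightest probe read 12.57, 11.82 and 12.35 (12.24 ± 0.39, SD, n = 3), a 1.68-fold difference between replicates 1 and 2. The order of the arrays was that of Igtp and Irgm2, with a far smaller range, which ranked 1508th among the 7950 genes. Its other probes disagreed in size. A second probe read 10.45, 8.66 and 9.85, a difference of 1.79 log2 units between replicates 1 and 2. The dimmest read 7.02, 4.82 and 5.99, and on replicate 2 it was not above background. All 3 Irgm1 probes put replicate 1 highest and replicate 2 lowest.

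Ifi47 and Tgtp1 encode effectors of the family, and Ifi47 shared the order of the regulators. It stood at 9.87, 6.85 and 8.03 (8.25 ± 1.52, SD, n = 3), 8.13-fold higher on replicate 1 and 2.27-fold higher on replicate 3 than on replicate 2. For Ifi47 the step from replicate 2 to replicate 3 was 39.1% of that to replicate 1, the lowest share among the 7 genes. In the values processed by the authors it was under 2-fold (7.38 on replicate 2 and 8.25 on replicate 3).

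Tgtp1 was the one member with another order. Its levels on replicates 1, 2 and 3 were 6.98, 4.92 and 7.45 (6.45 ± 1.34, SD, n = 3), the one on replicate 2 not above background. Set against the lowest level above background on that array (5.35), replicate 1 was at least 3.1-fold higher and replicate 3 at least 4.28-fold higher. Replicate 3 was 1.38-fold above replicate 1. Without normalisation between arrays that order turned and all 7 members had replicate 1 highest. Tgtp1 has a near-identical copy, Tgtp2, and a probe may not separate them.

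Among the guanylate-binding proteins, Gbp2 stood at 12.27, 7.66 and 10.46 (10.13 ± 2.32, SD, n = 3), 24.5-fold higher on replicate 1 and 6.99-fold higher on replicate 3 than on replicate 2. A second Gbp2 probe was above background on replicate 1 alone, at 7.51, 4.4 and 5.31. Gbp3 stood at 11.45, 6.89 and 9.56 (9.3 ± 2.29, SD, n = 3), 23.6-fold and 6.37-fold above replicate 2. Its second probe, at 10.88, 6.09 and 8.93, gave almost the same differences (4.79 and 2.85 log2 units). The share of the step reached on replicate 3 was 60.8% for Gbp2 and 58.6% for Gbp3.

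**Figure D1:**
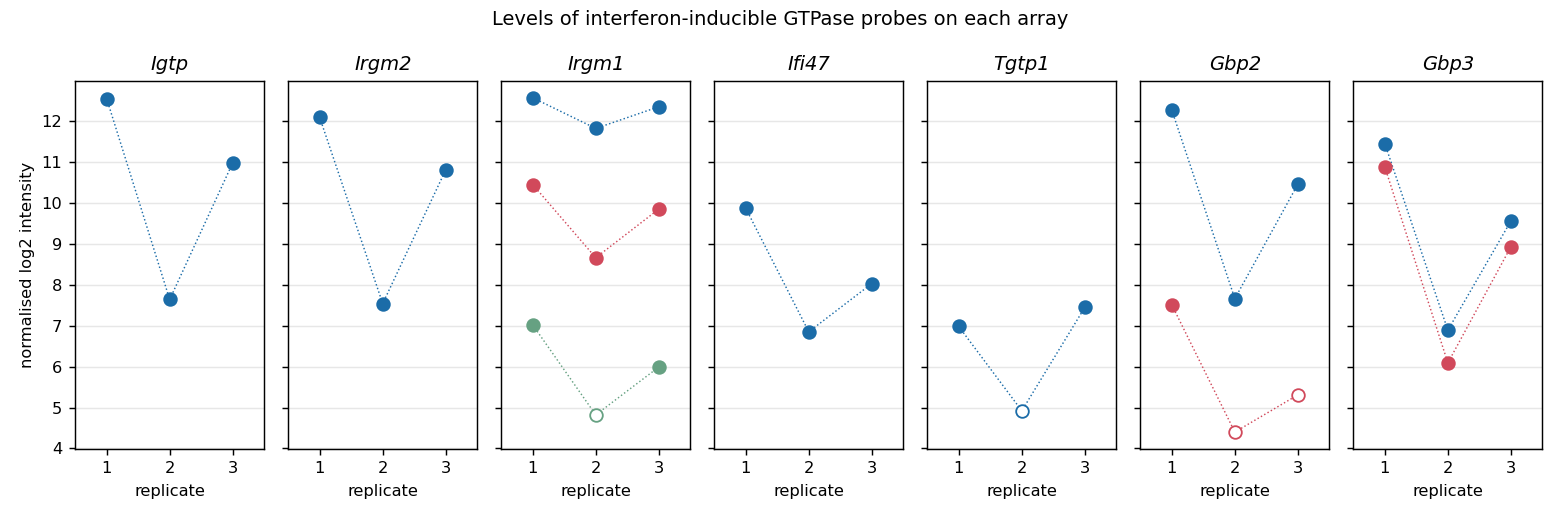
Normalised log2 intensity (vertical axis) of every probe of the 7 measured members on replicates 1, 2 and 3 (horizontal axis). Each colour is 1 probe, dotted lines join its points, and open circles are not above background. All 11 probes are lowest on replicate 2, and 10 are highest on replicate 1, Tgtp1 being the exception.

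Counted together, 6 of the 7 measured members were at least 2-fold higher on replicate 1 than on replicate 2, where 5.21% of 9252 genes were. Likewise 6 of 7 were at least 2-fold higher on replicate 3 than on replicate 2, where 0.46% of 8705 genes were. Between replicates 1 and 3, 5 of 7 were at least 2-fold higher on replicate 1, against 6.14% of 9143 genes. The median differences of the members were 4.55, 2.67 and 1.57 log2 units in that order, beside medians of 0.03, −0.02 and 0.03 over all genes. The order replicate 1 over 3 over 2 held for 6 of 7 members and for 20.0% of 9315 genes, and with both steps at least 2-fold for 5 members and for 18 of 7950 genes (0.226%). These contrasts chose the members, so nothing is read from the counts. In detection, 6 of 7 were above background on all arrays, near the 82.2% of all named genes. Names were held only for the authors' table, outside which no probe was above background on any array. Both shares are thus of genes already kept there, and nothing is read from them.

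**Figure D2:**
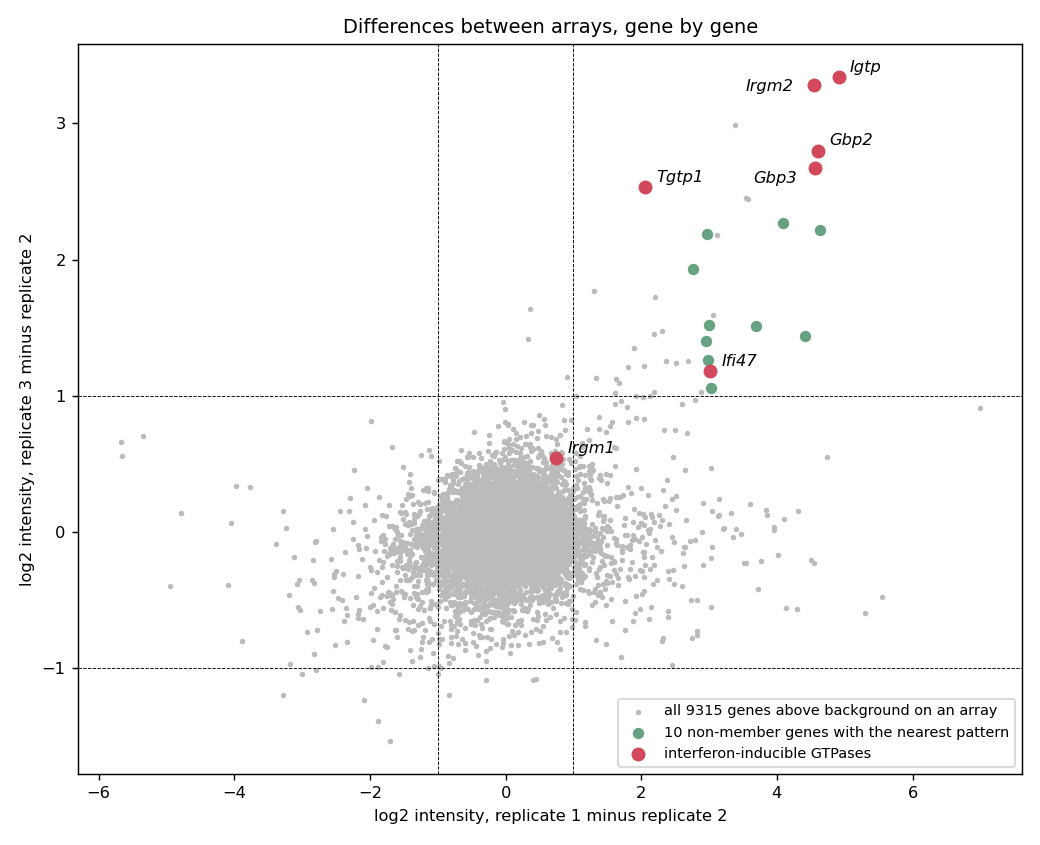
Each point is a gene above background on at least 1 array, with the log2 difference of replicate 1 from replicate 2 (horizontal) against that of replicate 3 from replicate 2 (vertical). Dashed lines mark 2-fold, red points are the 7 members and green points the 10 other genes with the nearest pattern. Irgm1 lies inside the 2-fold square at 0.75 and 0.54, and Igtp lies farthest out among the members at 4.91 and 3.34.

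Other genes of the same families had partly the same levels by array. Of 15 further interferon-inducible GTPase genes, 6 had a named probe and 1 was above background on all arrays. Gbp7 stood at 8.2, 4.65 and 7.11, below background on replicate 2, so that replicate 1 was at least 7.19-fold and replicate 3 at least 3.37-fold higher. Gm4951, which RefSeq also calls Ifgga2, stood at 8.24, 4.85 and 7.84, at least 7.41-fold and 5.61-fold above replicate 2. Both thus had replicate 2 lowest, as the members did. Gbp10 was above background on replicate 1 alone (6.68, at least 2.51-fold above replicate 2). Gvin1, a very large interferon-inducible GTPase, was highest on replicate 3 (7.65, 7.29 and 8.93, 3.12-fold above replicate 2). Mx2, of the antiviral Mx family, was just above background on replicate 1 (5.31) and not on the others, and Gbp2b was above background on none.

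Upstream of these genes, no interferon gene had a named probe (9 listed, among them Ifng and Ifnb1), so no ligand level can be given. No probe outside the authors' table was above background on any array. Of the receptor genes 5 of 6 had a named probe, and Ifnlr1 alone reached 2-fold. Ifngr1, the ligand-binding chain for interferon gamma, stood at 7.77, 8.03 and 7.98, and its partner Ifngr2 at 6.55, 7.32 and 7.15. Ifnar2, of the type I receptor, stood at 6.8, 6.65 and 6.64. Il10rb, shared by the type III receptor, stood at 5.75, 5.36 and 5.67. None of these 4 reached 2-fold between any pair of arrays. Ifnlr1, the other type III chain, was above background on replicate 1 alone (6.92), at least 2.97-fold above replicate 2, and did not separate replicates 2 and 3 (4.82 and 4.83, both at background).

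Of 11 genes for kinases, STATs and interferon regulatory factors, 10 had a named probe. The kinase genes Jak1 (5.27, 5.56 and 5.57), Jak2 (8.73, 8.37 and 8.27) and Tyk2 (7.69, 7.59 and 7.38) stayed within 2-fold. So did Irf2 (9.89, 9.3 and 9.43) and Irf3 (9.86, 9.86 and 9.61), of the regulatory factors. Others differed more. Irf1 stood at 12.44, 10.13 and 11.61, 4.97-fold higher on replicate 1 and 2.78-fold higher on replicate 3 than on replicate 2, and all 5 of its probes were at least 2-fold higher on replicate 1. Stat2 stood at 8.37, 6.32 and 7.54, 4.12-fold and 2.33-fold above replicate 2. Irf9 stood at 9.55, 7.88 and 8.97, 3.18-fold and 2.13-fold above it. These 3 had the order of Igtp, Irgm2, Gbp2 and Gbp3, with smaller differences from replicate 2. Those differences were larger than for the brightest Irgm1 probe (0.75 and 0.54 log2 units). Irf7 was above background on replicate 1 alone (5.82), at least 1.38-fold above replicate 2, so its 2-fold call rests on values at background. The same holds for Irf8 (5.55, 4.67 and 4.5), above background on replicate 1 alone and at least 1.04-fold above replicate 3. The list as a whole had 4 of 10 genes at least 2-fold higher on replicate 1 than on replicate 2, Irf7 among them. The median difference was 0.73, and 5.21% of all 9252 genes were that much higher. On replicate 3, 3 of 8 were at least 2-fold higher than on replicate 2, with a median of 0.07, beside 0.46% of 8705 genes. In the authors' processed values 1 gene of the list was at least 2-fold higher on replicate 3 than on replicate 2.

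Negative regulators of the pathway were all measured (9 of 9). Usp18, which removes ISG15 from proteins and damps the type I receptor, stood at 9.49, 6.99 and 8.22, 5.68-fold and 2.36-fold above replicate 2. The phosphatase gene Ptpn6 was above background on replicate 1 alone (6.41, at least 2.08-fold above replicate 2), as was Socs1, the inhibitor of JAK kinases (5.4). Socs3 stood at 8.87, 8.43 and 8.37 and Ptpn1 at 6.67, 5.96 and 6.4. The list had 2 of 9 genes at least 2-fold higher on replicate 1 than on replicate 2, with a median difference of 0.44. Over all 9252 genes the share was 5.21%. The count moved with the processing. It was 4 without normalisation between arrays, where all genes shifted by 0.32. It was 1 with quantile normalisation alone, with the authors' processed values and with an offset of 50.

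Genes for ATG8 proteins, and for the factors that conjugate them to membranes and direct the GTPases to vacuoles, were listed together. Of these, 10 of 10 measured were above background on all arrays, beside 82.2% of all 9678 named genes. None was at least 2-fold higher on replicate 1 or 3 than on replicate 2, and the median differences were −0.13 and −0.13. Atg3 stood at 8.04, 7.93 and 7.78, Atg5 at 9.56, 9.34 and 9.48, Atg7 at 6.26, 6.41 and 6.31, and Atg10 at 7.72, 7.97 and 7.8. Map1lc3b was 2.02-fold higher on replicate 1 than on replicate 3 (8.5, 8.31 and 7.48), and under 2-fold with the authors' values. The 6 measured genes for GTPases that shape other membranes did not reach 2-fold. Atl3, an endoplasmic reticulum atlastin related to the guanylate-binding proteins, stood at 8.32, 8.31 and 8.27, and the mitochondrial fusion gene Mfn2 at 11, 11.27 and 11.37. Dnm1l stood at 9.65, 9.95 and 9.86 and Mfn1 at 9.15, 9.52 and 9.48, while Dnm1 (5.3) and Opa1 (5.62) were above background on replicate 1 alone.

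**Figure D3:**
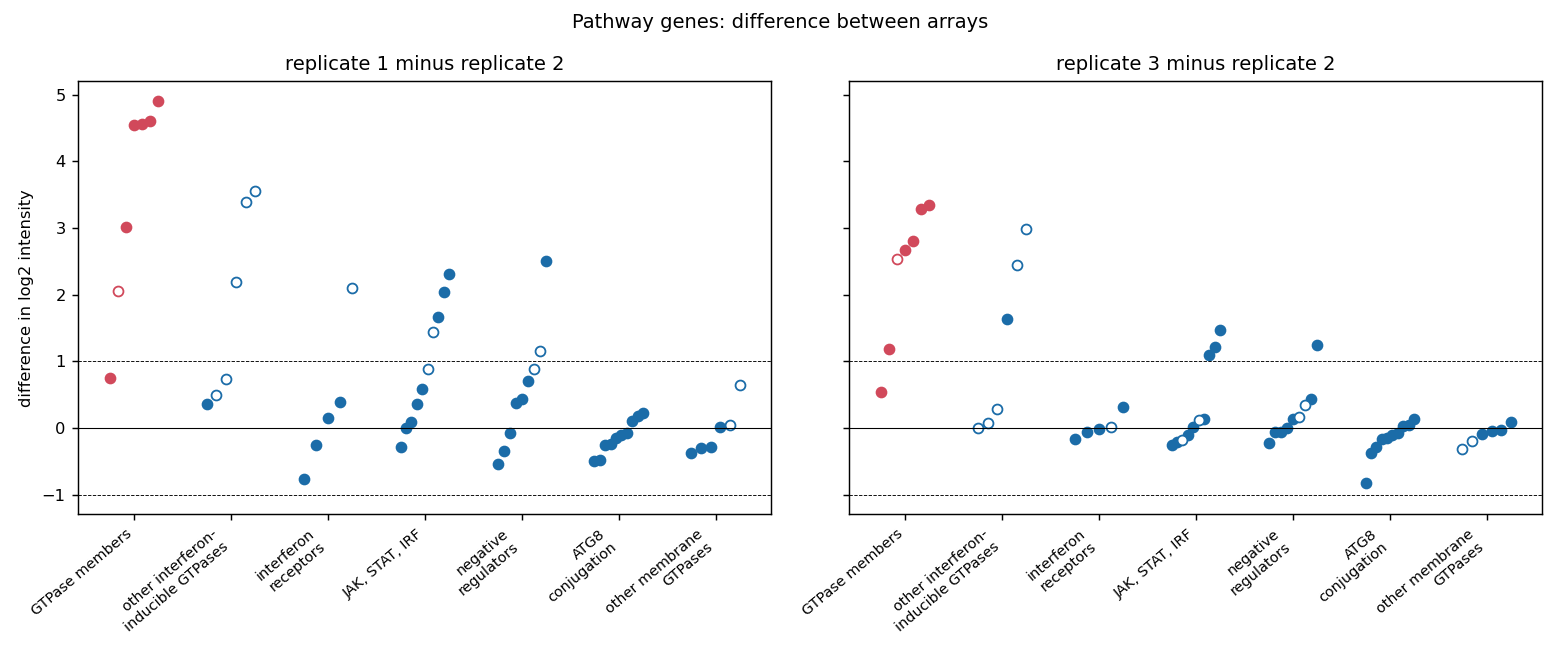
Difference in log2 intensity of each measured gene (points) by list (horizontal axis), for replicate 1 minus replicate 2 on the left and replicate 3 minus replicate 2 on the right. Open circles were not above background on all 3 arrays and dashed lines mark 2-fold. The members span 0.75 to 4.91 on the left, and no ATG8 conjugation or other membrane GTPase gene lies beyond 1 in either panel.

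The 7 measured members lie in groups along 2 chromosomes, and genes beside them were compared. Gbp3 and Gbp2 lie on chromosome 3, with Gbp7 and Gbp2b, and the other measured members lie in a pair of groups on chromosome 11, Irgm1 with Tgtp1 and Ifi47, and Igtp with Irgm2. Of the nearest named-probe genes that were not listed GTPases, 19 in all, 17 were above background on replicate 1 or 2. Of these, 1 was at least 2-fold higher on replicate 1 than on replicate 2, where 5.21% of 9252 genes were. That gene, Gm12250, is also called Irgb10 by RefSeq and is itself an immunity-related GTPase, found to be one after the neighbours were taken. It stood at 8.41, 4.84 and 7.29, at least 8.36-fold and 3.82-fold above replicate 2, where it was not above background. Gm12185, which RefSeq also calls Irgb2b1, was just above background on replicate 1 alone (5.37). Of the other 17 neighbours 15 were above background on replicate 1 or 2, and their differences between those arrays ran from −1.21 to 0.91 with a median of 0.22. Their differences of replicate 3 from replicate 2 ran from −0.33 to 0.31. Unc5c, a netrin receptor gene, was the one beyond 2-fold, and it went the other way (5.38, 6.6 and 6.31), as 4.99% of all genes did.

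**Figure D4:**
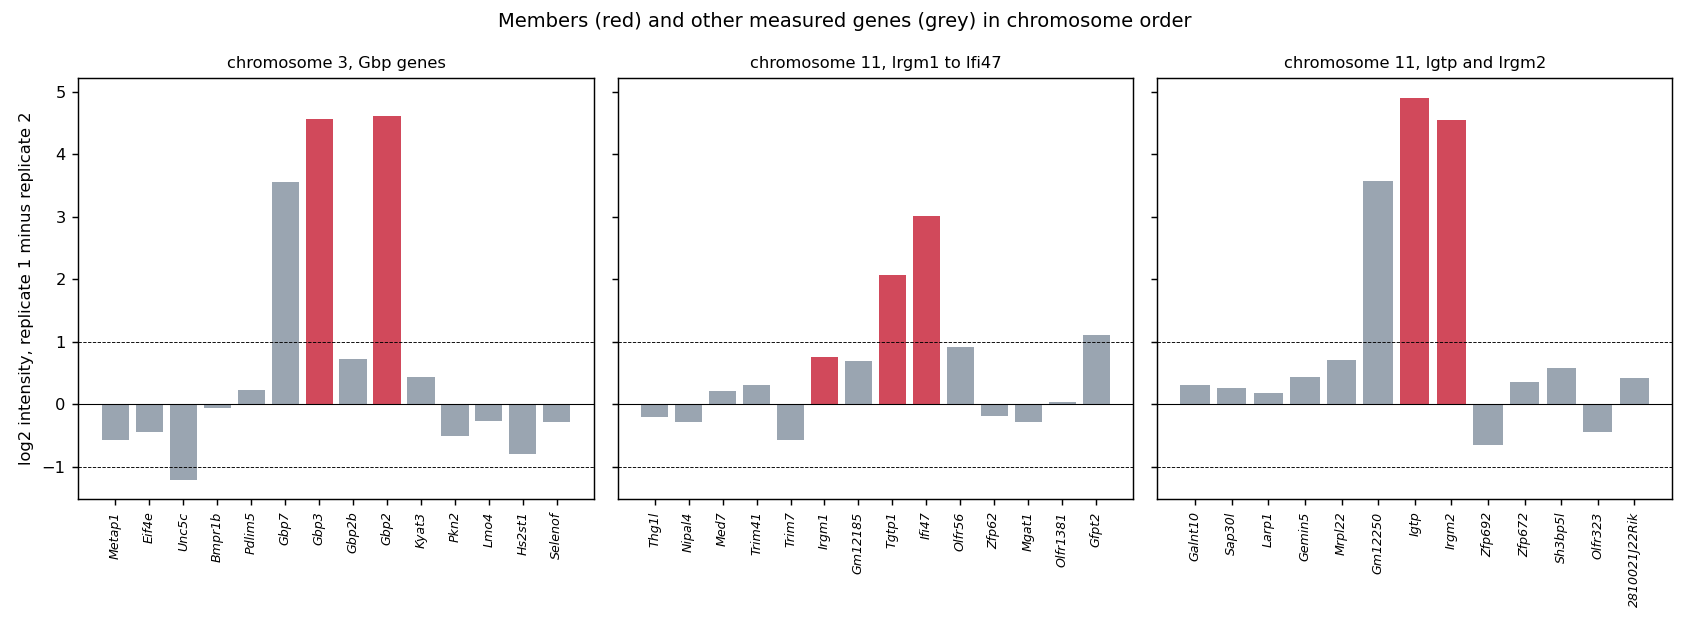
Difference of replicate 1 from replicate 2 in log2 intensity (vertical axis) for members (red bars) and other genes with a named probe (grey bars) in RefSeq gene order (horizontal axis), with 5 genes on each side of each group of these GTPase genes. Dashed lines mark 2-fold, which Gfpt2 (1.1), beyond the nearest neighbours, also passes. Gbp7 (3.55) and Gm12250 (3.57) are the high grey bars beside the red ones, and Gbp2b (0.73) lies low between Gbp3 and Gbp2.

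The promoter windows reached from 250 bases before to 50 after each start, and 7 members had one in the RefSeq table. The ISRE core, on either strand, was found in 6 of the 7 (all but Ifi47) and in 3.99% of the 27025 genes with a window (3.44% of all 32851 windows). The GAS TTCNNNGAA, which reads the same on both strands, was found in 3 of 7 and in 9.55% of all genes. In Igtp, Irgm2 and Tgtp1 the GAS ended 2 bases before the ISRE core, in Igtp at −45 to −37 and −34 to −25. Windows with exactly this layout (the GAS, any 2 bases, the ISRE core), a pattern written after the spacing was seen, numbered 5 of the 32851 (0.0152%). They belonged to Igtp, Irgm2, Tgtp1, Tgtp2 and Gm12185, and Tgtp2 had no named probe. Igtp and Irgm2 shared an identical run of 29 bases there and Tgtp1 and Irgm2 one of 20 bases, so these promoters are related copies and not independent cases. The longer form, the core followed by CT, was found in Irgm1, Gbp2 and Gbp3, overlapping their ISRE cores, and in 0.303% of all genes. The second annotated start of Gbp3 had no match.

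**Figure D5:**
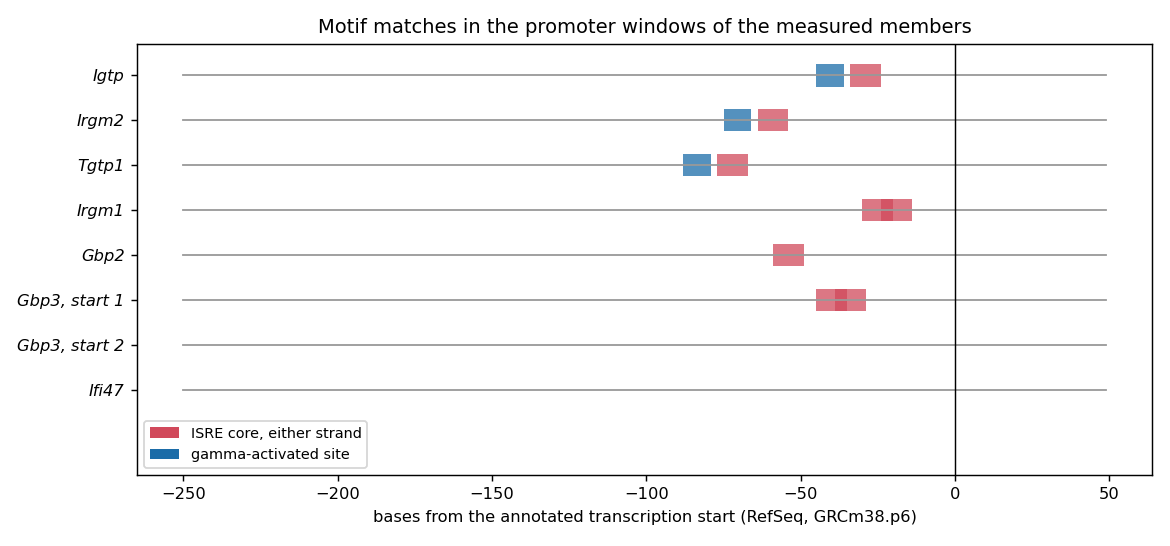
Matches to the ISRE core (red) and the GAS (blue) in each promoter window of the 7 measured members, by distance in bases from the annotated start (horizontal axis, start at 0). Igtp, Irgm2 and Tgtp1 hold both with 2 bases between them, and Ifi47 and the second start of Gbp3 hold neither.

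The same letters were followed to genes outside the list. Of 260 other genes with an ISRE core in a window and above background on replicate 1 or 2, 33 (12.7%) were at least 2-fold higher on replicate 1, beside 5.21% of all genes. Of 240 compared between replicates 3 and 2, 7 (2.92%) were at least 2-fold higher on replicate 3, beside 0.46%. With a GAS the shares were 5.19% and 0.864%. With the longer ISRE they were 8 of 19 (42.1%) and 3 of 17 (17.6%). The 8 genes, named after their values were seen, were Apobec3, Apol9a, Apol9b, Bst2, Ddx58, Gbp7, Oas1g and Tgfbi. Bst2, which encodes the antiviral tether tetherin, stood at 8.89, 7.58 and 9.36, highest on replicate 3 as Tgtp1 was. Oas1g, of the oligoadenylate synthetases, stood at 9.75, 7.42 and 8.17. Tgfbi, a matrix protein gene, had another order (10.2, 7.38 and 6.88). Genes with the longer ISRE also included some that barely differed, such as Cxcl10 (6.68, 6.41 and 6.54) and Gna13 (9.56, 9.75 and 9.52). A match is a description of the letters and was not tested as a site.

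The genes most like the members were found by the root mean square distance between a gene's 3 centred log2 levels and the members' median profile (1.94, −2.41 and 0.33 on replicates 1, 2 and 3), over 3 arrays. The 10 nearest non-members above background on all arrays were Psmb9 (distance 0.2), Oasl2 (0.34), H2-Q6 (0.5), Psmb8 (0.57), H2-Q8 (0.61), Tapbp (0.63), Psmb10 (0.65), Apol9a (0.65), H2-T23 (0.67) and H2-Q7 (0.73), where the median distance of all candidates was 1.8. Psmb8, a proteasome subunit gene, stood at 12.82, 9.86 and 12.04, Tapbp, the gene for tapasin, at 10.52, 6.11 and 7.55, and Oasl2 at 10.03, 5.39 and 7.61. All 10 had replicate 1 highest and replicate 2 lowest. H2-Q6, H2-Q7 and H2-Q8 are close copies whose probes may not separate them. With 3 arrays such likeness is shared by any gene of the same order and size.

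Markers of other cell types were mostly without a named probe, and no level can then be given. Only probes of the authors' table had names, and none of the 27527 others was above background on any array. Of 10 macrophage and leukocyte markers 2 had a named probe, and their summed unnormalised intensity was 260, 254 and 237 on replicates 1, 2 and 3. Cd14 was above background on all arrays (6.68, 6.92 and 6.99) and Aif1 on none, and Ptprc, Csf1r and Lyz2 had no named probe. None of 6 T and NK cell markers had one. Tek, the only endothelial marker of 5 with a named probe, was above background on replicate 1 alone (6.65, at least 2.46-fold above replicate 2, with an unnormalised intensity of 178, 78 and 68). The 9 fibroblast markers summed to an unnormalised intensity of 18305, 12069 and 9360. On normalised levels 2 of the 9 were at least 2-fold higher and 2 lower on replicate 1 than on replicate 2, with a median difference of 0.1, and between replicates 3 and 2 none was higher and 1 was lower, with a median of −0.23. Among them Dcn (12.28, 6.77 and 5.42) and Pdgfra (9.59, 6.07 and 5.84) were high on replicate 1, Thy1 (6.81, 9.85 and 9.49) and S100a4 (6.81, 8.34 and 8.24) were low there, and Col1a1 (11.95, 11.99 and 11.76), Col1a2 (7.55, 6.88 and 6.36) and Col3a1 (5.68, 5.59 and 5.24) differed less. Their part in the levels of the GTPases was not tested.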

How the data were processed

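The table of unprocessed values that the authors deposited gives, per the file headers, a linear intensity for each probe on each array, neither normalised nor background-subtracted, and beside it a detection p-value. The authors' processed table holds log2 intensities of 17754 of the 45281 probes, quantile normalised as its values show. None of the 27527 probes left out was above background on any array. Limma is named in the submitters' processing notes, while its version and the probe filter are not stated in any source used.

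Levels were computed from the unprocessed table with neqc in limma 3.58.1 (R 4.3.3), with an offset of 16; Python 3.11.15 was used for the rest. A gene's level is that of its probe with the highest mean. Only probes of the authors' table were named, through the platform annotation and RefSeq (15045 with 1 gene, 5 with several, 2704 with none). Where a probe was not above background, a fold is a lower bound against the lowest level above background on that array. Named genes were all members, listed pathway and marker genes (all where at most 6 were measured, otherwise the first 4 and those past 2-fold), and the 10 nearest patterns. Of the listed names 5 were dropped, because RefSeq holds no such gene or gives it as another name of Iigp1. A comparison of the proteins' nucleotide-binding motifs was not run. The members and lists were chosen with earlier results of these data known. The number of arrays, 3, limits precision, and the labels give no batch. On simulated arrays, 99% of 100 probes changed 4-fold and 0.236% of 14385 unchanged probes were past 2-fold, with 14585 probes compared between replicates 1 and 2. The changes were planted on replicate 1 in moderately bright probes, and every simulated array had the same noise. The real replicate 1 stood apart, so 0.236% is not the rate of false calls in these data.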

Additional observations from a re-analysis of the deposited data

How the results depend on the processing

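The members' counts and median differences were computed again with quantile normalisation alone, neqc without normalisation between arrays, the authors' processed values, an offset of 50, other probe rules, only members above background on all arrays, and each replicate left out. The median difference of replicate 1 from replicate 2 lay between 3.11 and 4.81, that of 3 from 2 between 2.18 and 2.74, and that of 1 from 3 between 1.54 and 1.92. Leaving out the array not compared gave 4.52, 2.69 and 1.55. Members at least 2-fold higher numbered 5 to 7, 5 to 6 and 5 to 6. Without normalisation all genes shifted by 0.32, −0.19 and 0.51, and higher calls went from 51.1% to 78.6%, from 75.5% to 47% and from 57.2% to 91.9% of calls in the same comparisons; with the authors' values they were 50.4%, 92.6% and 55.8%. The number of all genes at least 2-fold higher on replicate 1 than on replicate 2 was 482 in the main values and 238 in the authors'. The ISRE count fell from 6 to 3 members with the longer motif. Irgm1's mean level moved with its probe, from 12.24 to 9.28 as the mean of its probes and 5.94 for the dimmest, and Gbp2's to 5.74. With these 3 and the list counts, whose alternatives were added after the data were seen, 25 of 195 further values moved, the list counts to between 0 and 5 genes. No paired analysis was possible because the labels give a single group. Depth here is signal over background: Tgtp1 and the dim probes of Irgm1 and Gbp2 have only bounds on replicate 2.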
